A study of Mus musculus with 2 samples.

Results

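In mouse embryonic stem cells, 482 protein-coding genes carried the gene body mark H3K36me3 over more of their 5′ part than of their 3′ part, the reverse of the arrangement seen in most marked genes. They were chosen from the peaks themselves: a gene of at least 3 kb that overlaps no other coding gene, with at least 10% of its body in peaks in each replicate, and with the first of 3 equal parts, the 5′ part, more covered than the last, the 3′ part, in both replicates. Of 21911 coding genes, 17191 overlapped no other coding gene and 15294 of these were at least 3 kb long. Among the 15294, 5445 (35.6%) were covered to 10% or more in each replicate and are called marked here. The 482 genes made up 8.85% of the marked genes, against 4711 (86.5%) with the 3′ part more covered in both replicates. In the other 252 marked genes, the direction was opposite in the replicates (226 genes) or at least 1 replicate had a tie (26 genes).

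The data are chromatin immunoprecipitation with sequencing (ChIP-seq) against H3K36me3 in E14TG2a.4, a male embryonic stem cell line of strain 129/Ola, for which the labels give the stage as embryonic and the age as 3.5 day. There is 1 group, with 2 biological replicates from separate samples of this single line, and no treatment or other genotype, so no conditions are compared. The deposited files hold called peaks and no read counts, so the depth of either library is unknown. Replicate 1 had 107779 peaks over 139 Mb and replicate 2 had 98185 peaks over 127 Mb. Of 30 genes of a pluripotency list that met the length and overlap conditions, 28 were marked.

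H3K36me3 is trimethylation of lysine 36 of histone H3. The methyltransferase SETD2 lays it down while it travels with the elongating form of RNA polymerase II, so the mark is known to follow transcription into the gene body and to be low at promoters. Exons are known to carry more of it than introns, and it guides the de novo DNA methyltransferases and represses starts of transcription inside genes. Genes end where the transcript is cleaved and polyadenylated, commonly shortly after an AATAAA signal, and a gene can have several such ends.

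Many of these genes have an annotated transcript that stops early, and the ends of some of these transcripts are printed here. They were taken from the genes named in this report, by the size of the difference. Only ends that hold a polyadenylation signal were taken, so its presence in every line was fixed by the choice. Each line gives 30 bases of the RefSeq GRCm38 (mm10) sequence, read on the sense strand 5′ to 3′, with the AATAAA signal in capitals.

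Etnk1: attggttgtaacAATAAAgttgagttctaa
Diexf: aAATAAAgccaaccaaaaaaaatagtgcaa
Knstrn: gaggaaacacacacaaatAATAAActtttg
Zfp229: taagctattcAATAAAgcattttgtccttt
Kif1bp: gaacttgcacatAATAAAtttacttgtttc
Zfp64: aactggAATAAAggtgtttgggtttgggtt

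The Etnk1 window lies at chr6:143208511-143208540 on the plus strand, and its transcript ends 18 bases after the signal, at 63.5% of the gene's length. That of Diexf lies at chr1:193104412-193104441 on the minus strand, with the end at 66.0%. The Knstrn window is at chr2:118837667-118837696 (plus strand, end at 59.3%) and the Zfp229 window at chr17:21748929-21748958 (plus strand, end at 47.1%). Kif1bp has its window at chr10:62558479-62558508 (minus strand, end at 50.2%). In these 5 genes the transcript is the principal one, as defined below. In Zfp64, at chr2:168925371-168925400 on the minus strand with an end at 48.6%, it is another coding transcript. AATAAA was found on the sense strand within the last 40 bases of 67 of the 121 such early ends in the 482 genes (55.4%), and AATAAA or ATTAAA in 82 (67.8%). At the annotated gene ends of all 5445 marked genes the shares were 63.3% and 77.8%, and at 312 early ends of genes covered more in the 3′ part they were 38.1% and 51.3%. A match describes the letters and does not show that the site is used.

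Coverage in these genes was higher over the 5′ and the middle part than over the 3′ part, but less of the whole body was covered than in the 4711 genes. The median covered share of the body was 41.9% in replicate 1 and 38.9% in replicate 2, against 59.7% and 55.6% in the 4711. In the middle part of the 4711 it was 71.6% and 66.9%. A median of 52.5% of the 5′ part was covered in replicate 1 and of 48.6% in replicate 2, beside 52.1% and 46.2% of the middle part and 23.2% and 19.0% of the 3′ part. The difference between the 5′ and the 3′ part, which selected the genes and is a description, had a median of 19.2 ± 0.587 percentage points (SD, n = 2). When the gene was cut into 10 equal parts, mean coverage was 27.8% ± 1.59 in part 1 at the start, 63.9% ± 2.63 in part 3 and 25.1% ± 2.06 in part 10. In the 4711 genes covered more in the 3′ part it was 10.4% ± 1.64 in part 1 and 77.8% ± 0.828 in part 9. The mean over the 482 genes was thus highest in part 3 and not at the start, while single genes varied.

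**Figure D1:**
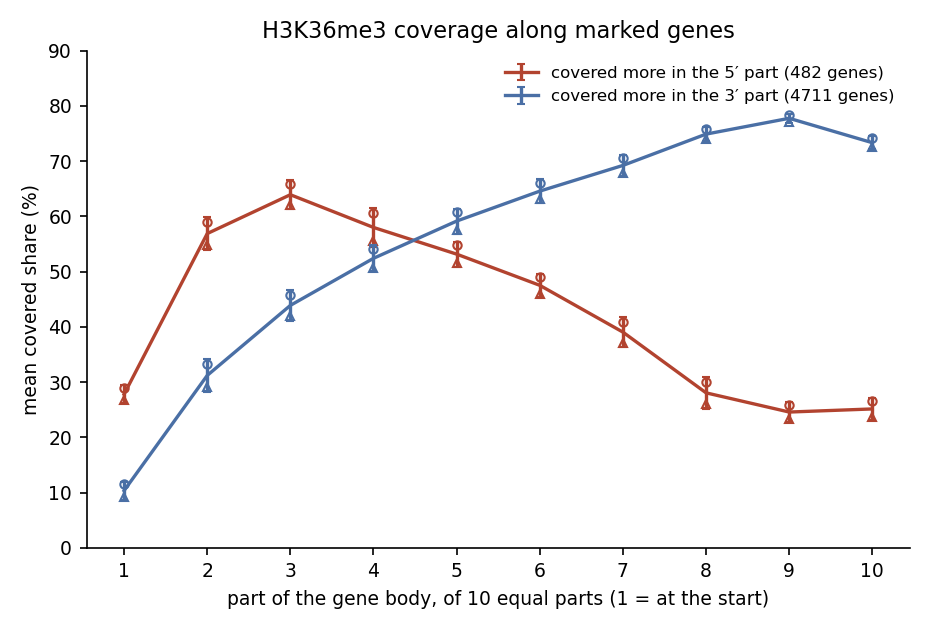
Mean covered share (%) in 10 equal parts of the gene body, with part 1 at the gene start, for the 482 genes covered more in the 5′ part and the 4711 covered more in the 3′ part. Circles are replicate 1, triangles replicate 2, lines the mean and bars the SD over 2 replicates; the 482 genes are highest at part 3 (63.9%), the others at part 9 (77.8%).

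Next to the start, coverage was low in these genes as well. Among the 212 of these genes that were 30 to 100 kb long, the first 2 kb were covered to 8.77% ± 0.298, the next 2 kb to 49.6% ± 2.21 and the stretch from 8 to 12 kb to 59.4% ± 2.90. The last 2 kb before the gene end were covered to 30.3% ± 0.971. In 1441 genes of that length covered more in the 3′ part, the first 2 kb were covered to 5.31% ± 1.18 and the last 2 kb to 63.4% ± 1.78. The 5′ part was the most covered of the 3 in both replicates in 222 of the 482 genes (46.1%), and the middle part was the most covered in 205 (42.5%). In 59 genes (12.2%) the 3′ part had no covered base in either replicate.

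Coverage ran past the gene end in fewer of them, an order that the choice by the 3′ part favours. In the 5 kb past the gene end, 262 of the 482 genes (54.4%) had no covered base in either replicate, against 915 of the 4711 genes (19.4%) covered more in the 3′ part. A covered domain, meaning peaks joined across gaps of up to 3 kb, crossed the gene end in both replicates in 118 of the 482 (24.5%) and in 3118 of the 4711 (66.2%). The next coding gene downstream lay at a median of 13.8 kb from the 482 genes and 7.75 kb from the 4711. This distance differs between the groups as the flank does, and its part in the flank's coverage was not tested.

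The replicates gave like differences for most of these genes, and the choice of genes with a positive difference in both favours this. The absolute gap between the 2 replicates' differences had a median of 5.66 points and exceeded 20.3 points in 1 gene in 20. The difference was larger in replicate 1 for 253 genes and in replicate 2 for 228. Replicate 1 alone would have picked 609 of the marked genes and replicate 2 alone 590. By the lower of the replicates, the difference exceeded 20 points in 184 genes and 50 points in 42, and lay under 5 points in 92.

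How many genes are found depends on which genes are allowed and by what margin. There were 309 with a margin of at least 10 points in both replicates, 276 when no gene of any biotype may overlap, 239 when no coding gene may lie within 5 kb of either end, and 806 when genes that overlap coding genes were included.

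**Figure D2:**
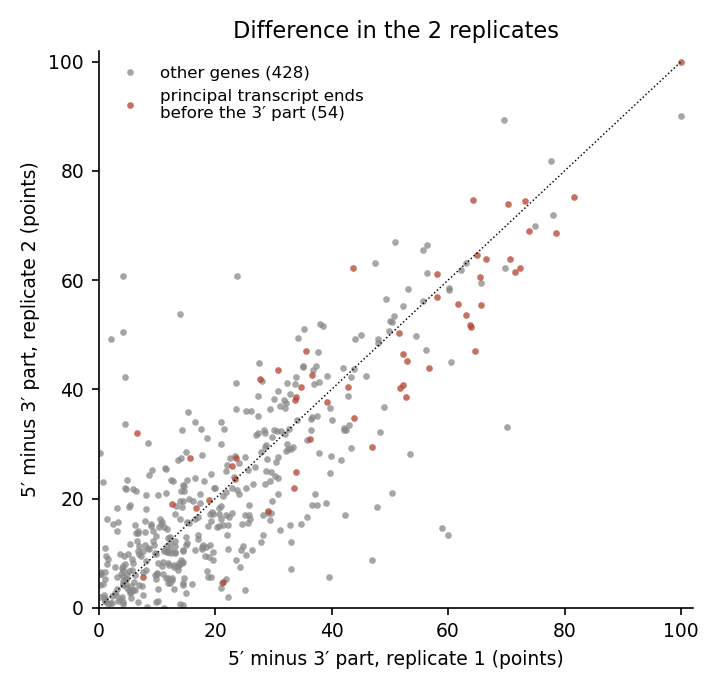
Difference between the covered share of the 5′ and of the 3′ part (percentage points) in replicate 1 against replicate 2, 1 point for each of the 482 genes, with the 54 genes whose principal transcript ends before the 3′ part in red. The dotted line marks equal values. Most genes lie near it, with gaps of 5.66 points at the median and up to 56.5. All were chosen for a positive difference in both replicates.

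The replicates were furthest apart in a few genes, several of them short. 2410137M14Rik (3.54 kb) had a 3′ part covered to 95.8% in replicate 1 and 39.3% in replicate 2, beside 100% of the 5′ part in both. In Lrrc3, a gene of 4.96 kb for a leucine-rich repeat protein, 2.06% and 49.3% of the 5′ part were covered, with no covered base in the 3′ part. In Mvk, which encodes mevalonate kinase of the isoprenoid pathway, 8.22% of the 3′ part was covered in replicate 1 and 43.8% in replicate 2. In the pooled set the difference was 5.6 points in 2410137M14Rik, 38.8 in Lrrc3 and 6.01 in Mvk. The spread of the replicates in these genes is close to or above the difference itself.

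At the threshold the choice rests on small amounts. Just inside, Klhl26 had 12.80% of its 5′ and 12.77% of its 3′ part covered in replicate 2, and Pinx1, an inhibitor of telomerase, had 77.9% and 77.7% in replicate 1. Ecm1, an extracellular matrix gene, had 87.1% and 86.9% in replicate 2. Zfp93 had only 1.22% of its 5′ part and 0.976% of its 3′ part covered in replicate 1, with 74.8% of its middle. Just outside were Mtrf1 (26.4% and 26.5% in replicate 1), Zfp827 (24.9% and 25.1% in replicate 2), Nudt21 (33.3% and 33.6% in replicate 1) and Pla2g1b, which had 100% of both in replicate 2. At the limit on the body, Pex26 was inside with 10.05% covered in replicate 1, and Ehbp1l1 outside with 9.85%. In the pooled peak set the order turned in Ecm1, to a difference of -5.09 points, and in Zfp93, to -9.60.

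The 10 genes with the largest difference, by the lower of the replicates, were BC030499, Kcnj14, Zfp64, Etnk1, Diexf, Got1l1, Fignl1, Ssr1, Gdpd3 and Knstrn. They fell into several kinds: an annotated principal transcript that stops early, a covered domain that crosses the gene start, or neither. The plot of 50 bins along named genes shows where the covered stretch stops in each.

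**Figure D3:**
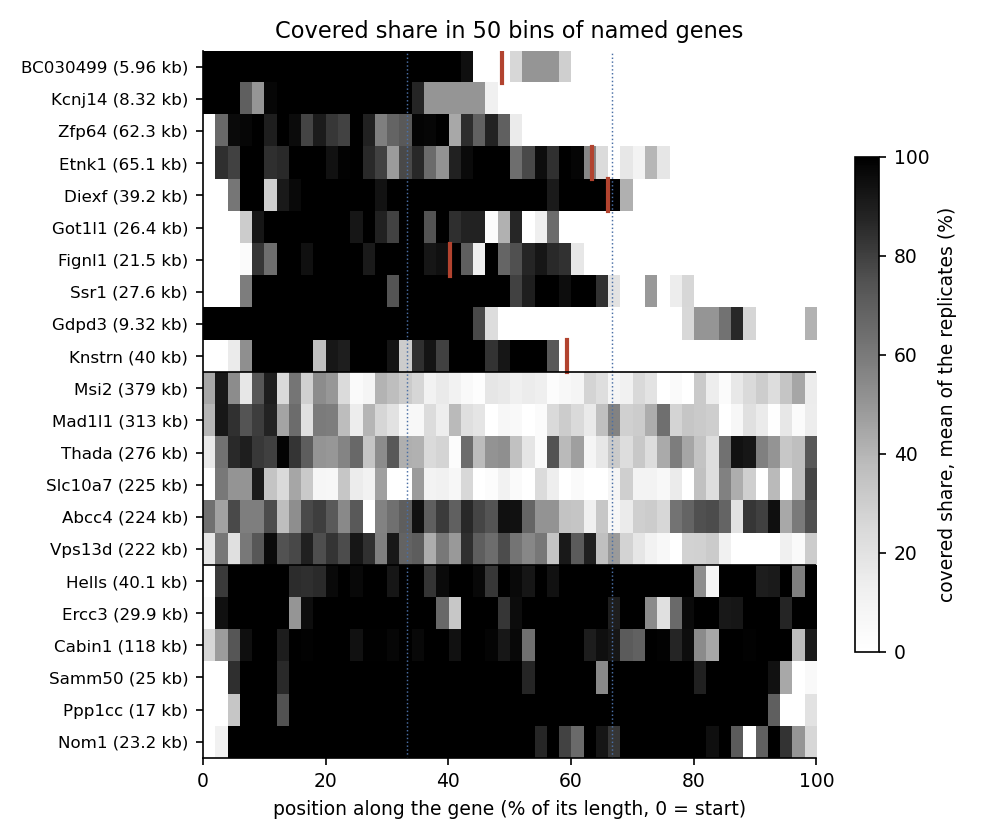
Covered share (%, mean of 2 replicates) in 50 equal bins along 22 genes, with 0 at the gene start: from the top, the 10 genes with the largest difference, the 6 longest and the 6 with the most covered body. Red bars mark the end of the principal transcript where it lies before the 3′ part and dotted lines the borders of the 3 parts; in Knstrn the covered stretch stops just before the red bar, and in Fignl1 it runs on past it.

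Early ends of transcripts were more common among the 482 genes than among the others. A coding transcript of the annotation's basic set ended before the 3′ part in 121 of the 482 genes (25.1%) and in 312 of the 4711 (6.62%). The principal transcript was taken as the basic coding transcript with the best APPRIS tag, which marks the main protein. Where tags were tied or missing, the one with the longest span was taken. The principal transcript ended before the 3′ part in 54 of the 482 (11.2%) and in 20 of the 4711 (0.425%). Among the 75 marked genes with such an early principal end, 72% were covered more in the 5′ part, against 7.97% of the other 5370. Where the gene span ran on, its end was carried by another coding transcript in 21 of the 54 genes, by a processed transcript in 21, by a transcript subject to nonsense-mediated decay in 10 and by a retained intron in 2.

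In these 54 genes less was covered past the end of the principal transcript than inside it. Inside the principal transcript the median covered share was 62.7% ± 1.33, and from its end to the gene end it was 6.93% ± 0.641 (SD, n = 2). The inside was the more covered in both replicates in 53 of the 54. The last 2 kb before the end were covered to a median of 83.0% ± 3.09 and the first 2 kb after it to 27.3% ± 1.84, and the window from 8 to 10 kb after it had a median of 0 in both replicates. The choice of the genes favours this order. In the 20 genes with an early principal end that were covered more in the 3′ part, the stretch past the end was covered to 63.5% ± 7.26, and the inside was the more covered in both replicates in 4.

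**Figure D4:**
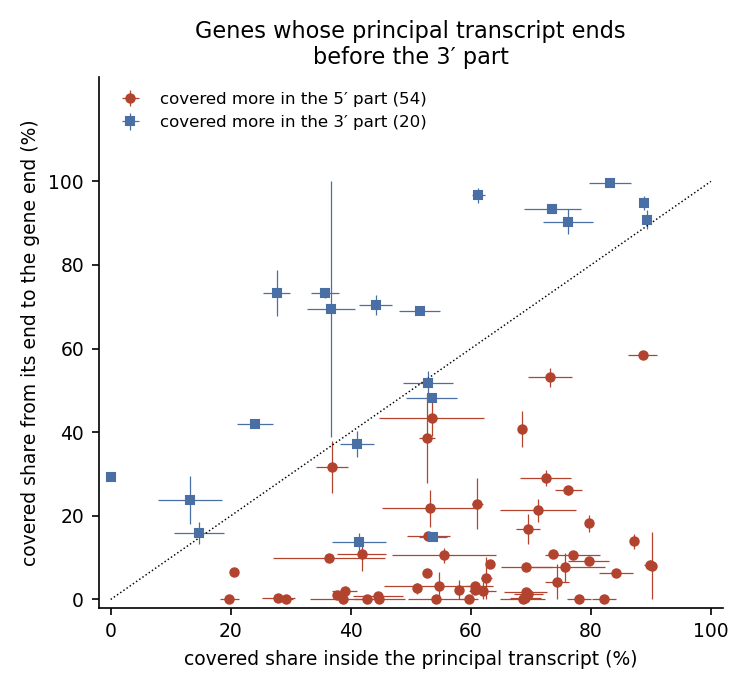
Covered share (%) inside the principal transcript against that from its end to the gene end, 1 point per gene whose principal transcript ends before the 3′ part, as the mean of the replicates with bars from the lower to the higher. Of the 54 genes covered more in the 5′ part, 53 lie below the dotted line of equal values in both replicates; the 20 genes covered more in the 3′ part are shown for comparison.

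Rpl11, which encodes a protein of the large ribosomal subunit, has a short principal transcript inside a long gene model. The model spans 25.2 kb at chr4:136028265-136053428, and the principal transcript ends at 14.7% of it. The 5′ part was covered to 78.6% and 68.7% in the replicates, and the middle and 3′ parts had no covered base in either. Within the principal transcript 87.7% and 86.9% of bases were covered, and past its end 15.8% and 12%. Hspa8, the constitutive heat shock protein of the Hsp70 family (chr9:40800984-40810087), had 65.0% and 64.7% of its 5′ part and none of its 3′ part covered, with a principal end at 46.3%. In both genes a processed transcript carries the annotated gene end.

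Knstrn, which encodes a spindle and kinetochore protein, had 73.8% and 68.9% of its 5′ part covered and no base past the end of its principal transcript. Etnk1, an ethanolamine kinase of phospholipid synthesis, had 83.8% and 83.2% of its 5′ part and 2.09% and 7.96% of its 3′ part covered. Diexf, whose product works in ribosomal RNA processing, had 78.6% and 82.1% of the 5′, 99.5% and 99.4% of the middle and 5.31% and 7.67% of the 3′ part covered. Past the principal end 5.62% and 7.27% of bases were covered in Etnk1, and 7.02% and 9.34% in Diexf. Kif1bp, a kinesin binding protein, had 66.5% and 63.9% of its 5′ part covered and none of the 3′ part.

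In other genes of this kind the coverage past the principal end differed. Fignl1, an ATPase of homologous recombination, had 70.3% and 73.9% of its 5′ part and none of its 3′ part covered, but 27% and 25.1% of the bases past its principal end, which lies at 40.3% of the gene. Cdk12, a kinase that phosphorylates the tail of RNA polymerase II and supports elongation through long genes, had 89.5% and 83.4% of its 5′ part and 55.5% and 58.4% of its 3′ part covered. Past its principal end at 57.9%, 57.7% and 59.2% of bases were covered. Mapk6, an atypical MAP kinase, had the middle part covered most (74.1% and 74.3%), the 5′ part to 23.4% and 23.6%, and the 3′ part not at all, with 6.42% and 6.41% covered past the principal end. Hnrnpa3, an RNA-binding protein, had 75.8% and 58.5% of its 5′ and 11.1% and 11.4% of its 3′ part covered, with 10.5% and 10.8% past its principal end. In Hnrnpa3 11.0% of the 32-base words sampled from the 3′ part occur once in the genome, and the part of read placement in its low coverage was not tested.

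Coverage that crosses the start was found in fewer genes. A domain crossed the annotated start in both replicates in 34 of the 482 (7.05%) and in 194 of the 4711 (4.12%). The domains are made of the peaks that chose the genes, and the choice by the 5′ part favours this order. The 34 genes had a median length of 10.2 kb, and the 5 kb upstream of them was covered to a median of 68.4% ± 3.35. The gap used to join peaks decides this count: with a gap of 1 kb the shares were 3.94% and 0.318%, and with 10 kb 26.8% and 23.4%. In 24 of the 34 genes the nearest upstream coding gene was on the same strand, and in 23 a marked coding gene lay within 5 kb. Among the 194 the counts were 121 and 160, so such neighbours were not particular to the 482 genes. With or without such a domain, a marked upstream gene lay within 5 kb in 19.5% of the 482 and 21.1% of the 4711. A single gene, BC030499, had both an early principal end and a domain across its start.

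BC030499 (chr11:78290841-78296805, 5.96 kb) had the largest difference of all, with 100% of its 5′ and none of its 3′ part covered in both replicates. Its start lies 217 bp past the end of 2610507B11Rik on the same strand, and the domain reached 28 kb and 27.8 kb upstream of the start. Kcnj14, an inwardly rectifying potassium channel (chr7:45816460-45824782), had 100% and 90.01% of its 5′ part and none of its 3′ part covered, and lies 440 bp from the end of Grwd1. Gdpd3, a glycerophosphodiester phosphodiesterase, starts 514 bp past Mapk3, a kinase gene on the same strand. Its 5′ part was covered to 100% in both replicates and its 3′ part to 30.3% and 10.7%, and its difference of 79.5 points was 51.8 in the pooled set. Peaks carry no strand, so coverage from an upstream transcript and from the gene itself cannot be told apart here.

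Without either feature there remained 395 of the 482 genes, with a median length of 35.6 kb and 12 exon blocks. Their 5′ part was covered to 48.3% ± 3.74, the middle to 48.1% ± 3.65 and the 3′ part to 23.4% ± 2.44, with a median difference of 16.4 ± 0.214 points (SD, n = 2). Their differences were smaller than the 47.7 ± 5.59 points of the 54 genes with an early principal end, and 21 of them had no covered base in the 3′ part.

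The 482 genes were longer than the 4711 and had other intron layouts. Their median length was 33.1 kb, with a range of 3.12 to 379 kb, against 21.5 kb in the 4711 genes covered more in the 3′ part. They made up 4.17% of marked genes of 3 to 10 kb, 7.72% of those of 10 to 30 kb, 12.3% of those of 30 to 100 kb and 14.4% of those of 100 to 300 kb. The midpoint of the longest intron lay at a median of 55.4% of the gene's length in the 482 genes and 30.6% in the 4711. Placed by its midpoint, here and below, the longest intron was in the 3′ part in 165 of the 482 (34.2%) and in 452 of the 4711 (9.59%). An intron so placed can reach into another part. Of marked genes with the longest intron in the 5′ part 3.89% were covered more in the 5′ part, of those with it in the middle part 10.3%, and of those with it in the 3′ part 25.2%.

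The shares differed by this layout in long genes and were level in short ones. Among marked genes of 3 to 10 kb, the share covered more in the 5′ part was 4.09% with the longest intron in the 5′ part and 4.48% with it in the 3′ part. In genes of 30 to 100 kb these shares were 4.23% and 42.3%, and in genes of 100 to 300 kb 3.29% and 60.6%, the latter being 20 of 33 genes. Coding sequence followed the same layout: the 5′ part held a median of 36.4% of it in the 482 genes and 17.8% in the 4711. Of the 1482 marked genes with more coding sequence in the 5′ than in the 3′ part, 19.5% were covered more in the 5′ part, against 4.87% of the other 3963.

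**Figure D5:**
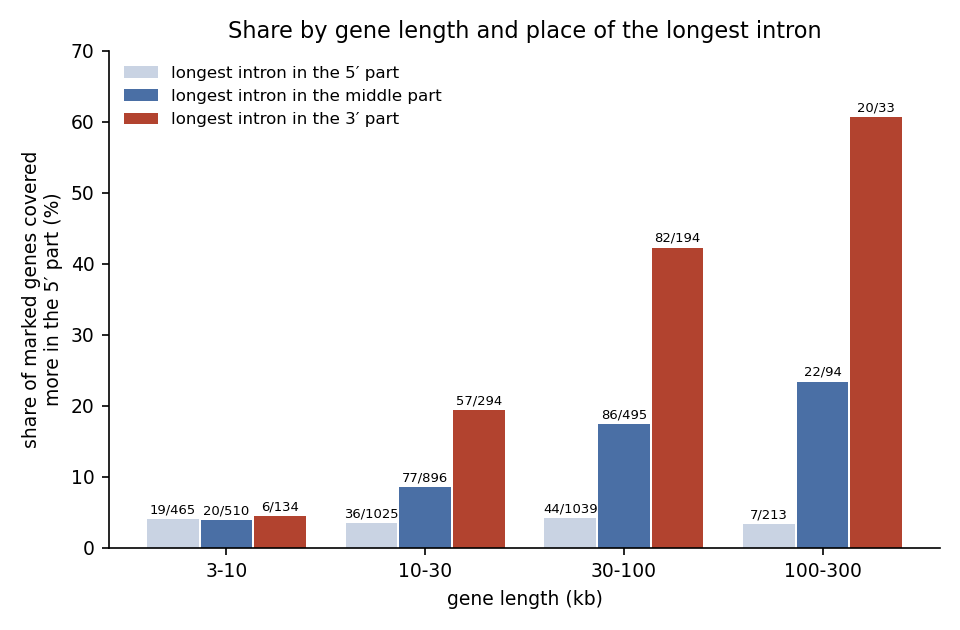
Share of marked genes covered more in the 5′ part (%), by gene length (kb) and by the part that holds the midpoint of the longest intron. The numbers over the bars are genes covered more in the 5′ part of all marked genes in that class. The bars are level in genes of 3 to 10 kb and reach 42.3% and 60.6% in genes of 30 to 100 kb and 100 to 300 kb with the longest intron in the 3′ part.

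The longest intron was the less covered stretch where it lay in the part with less coverage, an order that the choice of the genes favours. In the 165 genes with the longest intron there, a median of 16.5% ± 3.02 of that intron and 50.6% ± 3.06 of the rest of the gene was covered, and the intron was the less covered in both replicates in 141 genes (85.5%). In the 2551 of the 4711 genes covered more in the 3′ part that had the longest intron in the 5′ part, 15.7% ± 4.82 of the intron and 70.5% ± 2.26 of the rest was covered. In the 107 of the 482 genes with the longest intron in the 5′ part, the intron (42.2% ± 9.51) and the rest (41.6% ± 0.870) did not differ beyond the spread between replicates, and the intron was the less covered in both in 31. In the 452 of the 4711 with it in the 3′ part, the intron was covered to 88.4% ± 1.87 and the rest to 68.2% ± 1.59. With exons alone, the 5′ part was the more covered in both replicates in 284 of the 482 genes (58.9%), and the 3′ part in 130 (27%). The exon bases are among those that chose the genes, which favours the 5′ part. Pooled over bases, exons of the 5′ part were covered to 56.9% and 55.8% and introns there to 51.7% and 46.0%. In the 3′ part exons were covered to 37.2% and 35.2% and introns to 27.1% and 22.8%. Exons were thus the more covered in both parts and both replicates.

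Vps13d shows this layout in a gene of 222 kb. It encodes a lipid transfer protein, lies at chr4:144972622-145195005 and has its longest intron, 32.8 kb, centred at 87.5% of its length. Its 5′ part was covered to 72.4% and 68.7%, its middle to 65.2% and 60.7% and its 3′ part to 16.8% and 12.5%. Smad6, an inhibitory Smad of BMP signalling, spans 69.0 kb and has its longest intron, 35.4 kb, centred in its 3′ part. That intron is longer than the part and reaches into the middle part. In Smad6 41.8% and 56.1% of the 5′ and 4.43% and 11.8% of the 3′ part were covered. Fbln1, an extracellular matrix glycoprotein, had 61.3% and 48.5% of its 5′ and 18% and 19.2% of its 3′ part covered, with a longest intron of 19.6 kb centred at 86.0%. Ssr1, a subunit of the translocon-associated complex of the endoplasmic reticulum, had 80.0% and 75.9% of its 5′ and 5.13% and 5.91% of its 3′ part covered. Its difference of 72.4 points was 45.1 in the unthresholded sets, 41.6 in the pooled set and 39.1 in the set found in both replicates.

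The longest genes differed widely in how much of their 3′ part was covered. Msi2, a Musashi RNA-binding protein, spans 379 kb and had 48.9% and 37.5% of its 5′, 19.9% and 6.87% of its middle and 24.9% and 11.0% of its 3′ part covered. Mad1l1, a spindle checkpoint gene of 313 kb, had 61.3% and 41.1% of the 5′ and 31.1% and 16.9% of the 3′ part covered. Thada (276 kb) had 68.0% and 61.2% of the 5′ and 53.6% and 41.7% of the 3′ part covered. In Slc10a7 (225 kb) the difference was 5.59 ± 2.35 points and in Abcc4, a transporter gene of 224 kb, 4.51 ± 0.282 points. In the unthresholded sets Abcc4 turned to -5.05 points. In the set found in both replicates the difference was 1.98 points in Slc10a7, and in the pooled set it was 0.381 in Abcc4. Replicate 2 was the lower in every part of these 5 genes, as it was in total covered bases.

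The genes with the most covered body had small differences. Hells, a chromatin remodeller that supports DNA methylation, had 88.2% and 90.7% of its 5′ and 87.0% and 88.8% of its 3′ part covered. The difference of Hells turned to -1.07 points in the pooled peak set. Cabin1, a calcineurin-binding protein, had 91.3% and 87.2% of its 5′ and 85.4% and 83.9% of its 3′ part covered. Nom1, a nucleolar protein, had 88.8% and 88.6% of the 5′ and 78.8% and 82.4% of the 3′ part covered, and its difference of 8.08 points was 1.20 in the pooled set. The difference of Cabin1, 4.57 points, was 2.29 in the set found in both replicates. Of marked genes with 75% or more of the body covered in the lower replicate, 2.41% were covered more in the 5′ part, against 14.9% of those with 10 to 25%.

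Zfp64 and Got1l1 had large differences without an early principal end. Zfp64, a zinc finger protein gene at chr2:168893331-168955587, had 77.7% and 81.7% of its 5′ part covered and no base of its 3′ part, and its coverage stopped at 50.4% and 50.2% of the gene. A coding transcript that is not the principal one ends at 48.6% of the gene. Got1l1, a relative of the aspartate aminotransferases, had 78% and 72% of its 5′ part and none of its 3′ part covered. All of its coding sequence in the gene model lies in the 3′ part, past an intron of 21 kb. Its principal transcript spans 5.09 kb and had no covered base in either replicate, so the covered bases all lay outside it.

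By function, the genes were spread over many lists. None of the 28 marked genes of the pluripotency list was among the 482, beside 8.85% of all marked genes, and 26 of those 28 were covered more in the 3′ part. Zinc finger genes with Zfp symbols, the list with the most marked genes, held 26 members of 197 marked (13.2%). In these 26 the 5′ part was covered to a median of 44.7% and 45.6% and the 3′ part to 9.97% and 1.94%. Of the 26, 12 had an early coding transcript, among them Zfp229 (64.2% and 74.6% of the 5′ part, none of the 3′ part). In 4 of the 26, less than 50% of the words of the 3′ part were unique; their part in the low coverage was not tested.

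Ribosomal protein genes, cytosolic and mitochondrial, had 6 of 78 marked (7.69%), led by Rpl11. Mrpl17, of the large mitochondrial subunit, had 63.0% and 63.1% of its 5′ part covered, and Mrps17, of the small one, 65.6% and 59.5%, with no covered base in the 3′ part of either. Of splicing and RNA-binding genes 10 of 106 were members (9.43%), of protein kinases 7 of 80 (8.75%), of solute carriers 6 of 114 (5.26%), of ubiquitin ligases and proteases 5 of 129 (3.88%) and of chromatin regulators 4 of 87 (4.6%). Among the kinases, Map2k2 of the ERK cascade had 84.5% and 78.1% of its 5′ and 14.7% and 15.9% of its 3′ part covered. Among the chromatin regulators, the remodeller Smarcad1 had 81.2% and 76.3% of its 5′ and 64.2% and 63.6% of its 3′ part covered.

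The smaller lists held up to 3 of the 482 genes. Of 12 marked G protein-coupled receptors 3 were members (25%), of 14 extracellular matrix genes 2 (14.3%), of 15 ion channels 2 (13.3%) and of 7 cadherin and neuronal adhesion genes 1 (14.3%). Cdk12 was the member among 18 marked genes of 3′ end processing, and Smad6 the one among 22 of growth factor and TGF-beta signalling. Tcf7l1, a repressor of Wnt targets in embryonic stem cells, was the one among 29 of the Wnt, Notch, Hedgehog and Hippo list, with 27.2% and 23.3% of its 5′ and 14.1% and 13.3% of its 3′ part covered. With lists this small, the shares are counts and no more.

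By chromosome, the share ranged from 5.69% of marked genes on chromosome 2 (24 of 422) to 14.8% on the X chromosome (20 of 135), leaving out Y. On Y the single marked gene, Ddx3y, an RNA helicase, was a member, with 40.5% and 30.8% of its 5′ and 4.78% and 0% of its 3′ part covered.

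The 3′ part of the 482 genes held more repeats, and more often few unique words, than that of the 4711. Repeat-masked bases made up a median of 24.4% of the 5′ part in the 482 genes and 23.2% in the 4711. Of the 3′ part they made up 25.8% in the 482 genes and 19.9% in the 4711. Of sampled 32-base words there, a median of 94% and 96% occurred once in the genome. Fewer than 50% of these words were unique in 20 of the 482 genes (4.15%) and 34 of the 4711 (0.722%), and the part of read placement in their low coverage was not tested. The difference, which selected the genes, had a median of 29.1 points in replicate 1 and 24.6 in replicate 2 in those 20 genes, and of 20.4 and 18.4 in the 333 genes with 90% or more unique words there.

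Measured over the principal transcript in place of the whole gene span, 392 of the 482 genes had the 5′ part more covered in both replicates and 76 had the 3′ part more covered. The order could change only in the 238 genes whose principal transcript is shorter than the span. Of these, 148 kept the 5′ part more covered and 76 turned. In the rest of the 482 the measure is the same as the one that chose them. Of the 482 genes, 343 (71.2%) had at least 1 of 4 features (an early principal end, a domain across the start, the longest intron in the 3′ part, or more coding sequence in the 5′ than in the 3′ part), against 29.5% of the 4711. The other 139 had none of them. The domain across the start rests on the peaks that chose the genes, and the other features on the gene models alone.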

How the data were processed

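H3K36me3 ChIP-seq peaks of 2 replicates of E14TG2a.4 cells were used. The authors deposited narrow peaks on mm10, called separately for each replicate and kept where supported by pseudoreplicates, per the file headers and file lists. The authors' fold enrichment is a ratio per peak, and p-values and q-values are deposited as −log10. Aligner, peak caller and number of reads: not given in the sources used here. Thinner coverage of a replicate can come from its depth. Gene models were GENCODE M21 on GRCm38, 1 record per symbol (27 left out). The covered share is the percent of bases in peaks. Uniqueness is the percent of 100 sampled 32-base words per part that occur once in the genome. Python 3.11.15 with numpy 2.4.6 and pandas 2.3.3 was used. Only counts, medians and mean ± SD over the replicates are given, and no test was made, since the coverage chose the genes and genes are not replicates. On simulated peaks, 200 of 200 planted genes were recovered among 15294, with 0 others called. Planted genes had peaks in the 5′ part alone, and the others in the 3′ part alone or none. This checks the counting and not genes near the threshold. Genes named were the 10 with the largest difference, the 6 longest, the 6 most covered, those at the threshold, up to 3 per list and the 4 with the largest replicate gap, and some others were chosen after their values were seen (Hspa8). The members and lists were chosen with earlier results of these data known. Alternatives were other peak sets, stricter peaks, 1 replicate, other thresholds, parts, gene sets and gaps.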

Additional observations from a re-analysis of the deposited data

How the results depend on the processing

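Genes were chosen anew under each alternative, so the sign of their difference is fixed by the choice. The count of 482 ranged from 323 (25% of the body) to 704 (set found in both replicates) except for 309 with a margin of 10 points, 276 with no overlap with any gene, 239 with no coding gene within 5 kb and 806 with overlapping genes included. Without 1 replicate it was 613 to 658.

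The median difference of 19.2 points was 21.2 with −log10 q of at least 5, 17.7 in the unthresholded sets, 16.4 in the pooled set, 16.3 in the set found in both replicates, 15.1 to 15.7 without 1 replicate, 17.1 and 20.2 at 5% and 25% of the body, 15.5 with 2 equal parts, 22.8 with 5, 28.8 with the margin of 10 points, 17.2 over the principal transcript, 22.6 with overlapping genes and 18.6 in genes of at least 10 kb.

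The median length of 33.1 kb was 35.3 kb in the unthresholded sets, 30.5 to 31.4 kb without 1 replicate, 31.5 kb with the authors' fold averaged over the part, 36.5 kb and 31.6 kb at 5% and 25% of the body, 30.9 kb with 2 equal parts, 37.6 kb with 5, 26.4 kb with no overlap with any gene, 36.5 kb with no coding gene within 5 kb, 31.8 kb with overlapping genes and 36.5 kb in genes of at least 10 kb.

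The share with an early transcript, 25.1%, was 21.1% in the pooled set, 20.6% in the set found in both replicates, 31.4% with the margin of 10 points and 17.3% over the principal transcript, and 22.5% without either replicate. The share with a domain across the start, 7.05%, was 7.99% to 8.21% without 1 replicate, 2.51% with no coding gene within 5 kb, 12.3% with overlapping genes, 3.92% in genes of at least 10 kb, and 3.94% and 26.8% with gaps of 1 kb and 10 kb. The cause was not tested, apart from the genes or bases that each alternative itself leaves out or adds.

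Of the 482 genes as chosen, 447 kept a more covered 5′ part in the pooled set, 414 in both unthresholded sets, 450 with −log10 q of at least 5 and 440 by the averaged fold. All these sets come from the same 2 libraries, and the stricter peaks and the fold use the very peaks that chose the genes. The counts are therefore favoured by the choice and are no independent check. Among named genes the difference turned to -5.05 points in the unthresholded sets for Abcc4, to -1.07 in the pooled set and in the set found in both replicates for Hells, with -0.192 by fold, to -1.65 by fold for Ppp1cc, to -5.09 in the pooled set and the set found in both replicates for Ecm1, and for Zfp93 to -2.72 in the unthresholded sets and -9.60 in the other sets. With peaks only, depth cannot be weighed, and thin coverage of a long intron is not told apart from reads too few to call a peak. No paired analysis was possible because there is 1 group.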
